A study of Mus musculus with 24 samples.

Results

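The laminin chains analysed here were 9 genes, taken by name from 3 processed tables of messenger RNA from sorted mouse embryonic brain cells: Lama1, Lama2, Lama3, Lama4, Lama5, Lamb1, Lamb2, Lamc1 and Lamc3. The series lists 25471 distinct genes over its 3 tables. All 9 chains were listed in the E13.5 endothelial table and in the E13.5 pericyte table, and 8 in the E11.5 pericyte table, which gave no row for Lama3. Each listed chain had a deposited adjusted p, so no listed chain lost its adjusted p to the filter on low levels. Why Lama3 had no row at E11.5 is not stated. The design asks which genes of brain pericytes depend on ALK5, the type I TGF-beta receptor encoded by Tgfbr1, while brain vessels form. Mutant endothelial cells at E13.5 came from 3 samples and their controls from 5. Mutant pericytes came from 4 samples at E13.5 and from 4 at E11.5, each against 4 controls. Every mouse in the series carried Pdgfrb-Cre and the Zs reporter allele. Mutants were Alk5(flox/flox), and the labels name their disease state as GMH-IVH. Controls were Alk5(flox/+), so they too can lose 1 copy in Cre-expressing cells. Pdgfrb is also active in mesenchymal cells other than pericytes, and the labels do not say how endothelial cells were gated. The values used were 1 authors' mean per group, so no value per library, and no spread within a group, is given.

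Laminins are secreted trimers of an alpha, a beta and a gamma chain wound into a coiled coil, and they are the first layer of a basement membrane. Short arms with an LN domain at their tips join trimers into a sheet, while the globular end of the alpha chain binds integrins and dystroglycan on cells. Nidogens tie the gamma chain encoded by Lamc1 to type IV collagen. In brain vessels the alpha chains of Lama4 and Lama5 are known from the endothelial basement membrane, and those of Lama1 and Lama2 from the outer one laid down by pial, mural and glial cells. Lama3 is known from epithelia.

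By the authors' deposited tables Tgfbr1, the targeted gene, averaged 2849 in mutant and 3066 in control endothelial cells (adjusted p = 0.859), 5823 in mutant and 5700 in control pericytes of E13.5 (adjusted p = 1.00), and 6196 in mutant and 4609 in control pericytes of E11.5 (adjusted p = 0.399). A value for the whole gene does not check the deletion, and its deleted exons on their own were not analysed here. Xist averaged 5.73 in mutant pericytes and 36145 in control pericytes of E13.5 by the authors' deposited table, so the sex of embryos and genotype cannot be told apart in that comparison. Summed control levels by the authors' deposited tables were 162677 for 15 endothelial markers in the endothelial sort, where 13 of 15 pericyte markers were listed and summed to 4816. In E13.5 control pericytes 14 listed pericyte markers summed to 36487, 12 listed endothelial markers to 3909 and 12 markers of fibroblasts and meninges to 304486. The endothelial sums in pericytes leave out Pecam1 and Cldn5 at both stages and Tie1 at E11.5, defining endothelial markers that the pericyte tables list with no p, ratio or mean. Neural markers and epithelial or choroid plexus markers had 0 called in every comparison by the authors' deposited tables. Over all genes 7.30% were called in endothelial cells, 0.388% in E13.5 pericytes and 3.35% in E11.5 pericytes. No marker given a mean was at 0 in either group.

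Among the alpha chains, Lama4 made up almost all of the message in sorted endothelial cells, and Lama1 and Lama2 shared that of sorted pericytes with it. Pericytes here means the sorted population. In its E13.5 controls fibroblast and meningeal markers summed to 304486 and pericyte markers to 36487. A chain's level there cannot be assigned to pericytes alone. Levels of different chains were compared as the group mean per kilobase (kb) of the longest annotated transcript. Shares of a class are over its members among the 9 chains. Lama4 lies on the plus strand of chromosome 10 from 38965515 to 39110188 (mm10), and it encodes an alpha chain with a truncated short arm that lacks the LN domain. In E13.5 endothelial cells Lama4 stood at 684 per kb in mutants and 944 per kb in controls, or 96.4% of all alpha chain levels in mutants and 97.4% in controls. In E13.5 pericytes it stood at 625 per kb in mutants and 551 per kb in controls, or 55.9% of alpha chain levels in mutants and 56.0% in controls. In E11.5 pericytes it made up 27.0% of alpha chain levels in mutants and 36.4% in controls.

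Lama2 (chromosome 10, minus strand, 26980036 to 27619758) encodes the alpha chain of muscle and of the outer vessel basement membrane. It was at 286 per kb in mutant and 267 per kb in control E13.5 pericytes, against 3.49 per kb in mutant and 4.48 per kb in control endothelial cells. Lama1 (chromosome 17, plus strand, 67697259 to 67822647) encodes the first alpha chain of the embryo and is known from pial basement membrane. It led the alpha chains of E11.5 pericytes with 225 per kb in mutants and 193 per kb in controls, or 57.6% of alpha chain levels in mutants and 45.5% in controls. At E13.5 it held 17.1% in mutant and 15.2% in control pericytes, and 1.54% in mutant and 1.27% in control endothelial cells. The order of the alpha chains thus ran Lama4, Lama2, Lama1 in E13.5 pericytes and Lama1, Lama4, Lama2 in E11.5 pericytes, in both genotypes.

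Lama5 and Lama3 were low throughout. Lama5 (chromosome 2, minus strand, 180176373 to 180225859) stood at 8.52 per kb in mutant and 6.40 per kb in control endothelial cells, and at 9.29 per kb in mutant and 10.1 per kb in control E13.5 pericytes. Lama3 (chromosome 18, plus strand, 12333819 to 12583013) stood at 2.51 and 2.33 per kb in mutant and control endothelial cells and at 5.97 and 6.44 per kb in mutant and control E13.5 pericytes. In E11.5 pericytes Lama5 was at 0.956 per kb in mutants and 1.22 per kb in controls. The highest share of alpha chain levels that either gene reached was 1.20%, for Lama5 in mutant endothelial cells.

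**Figure D1:**
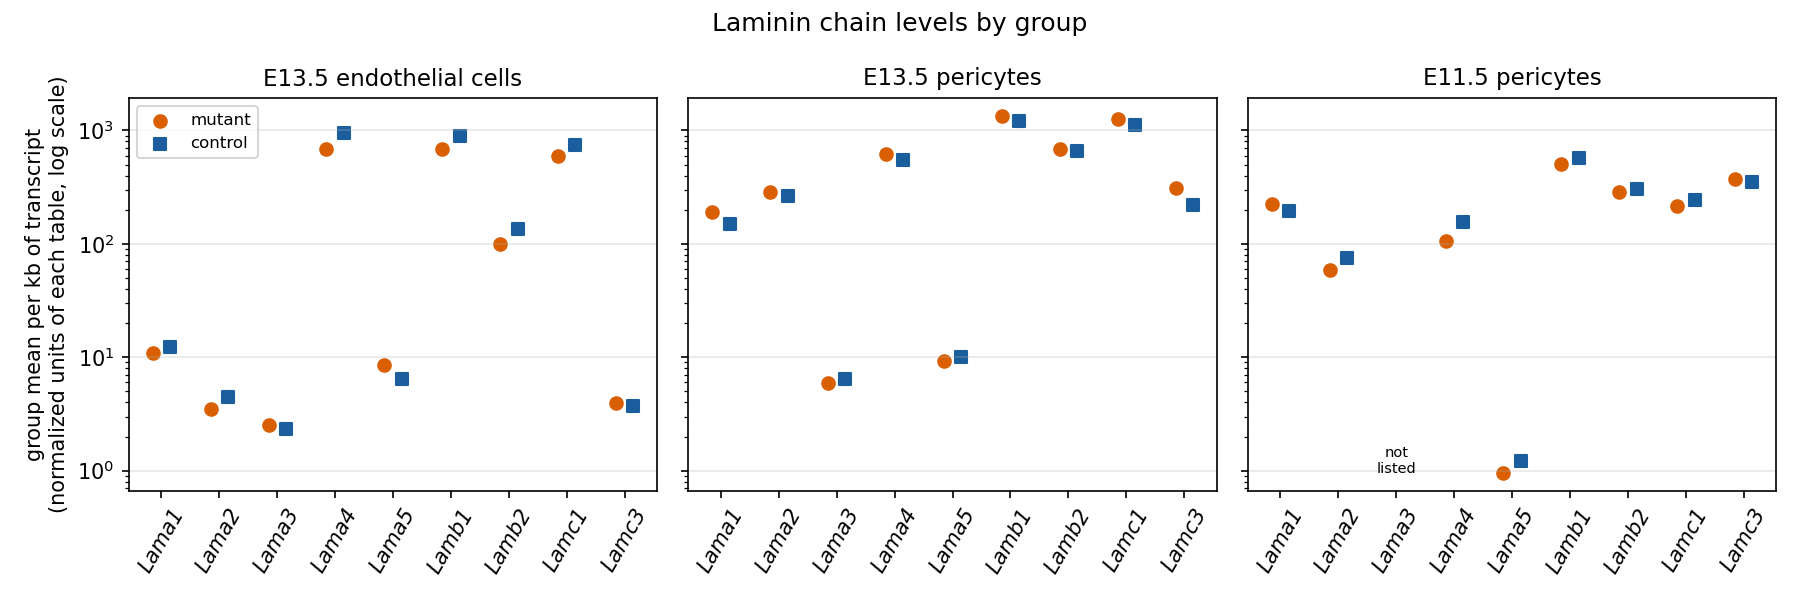
Group means of the 9 laminin chains per kb of transcript on a log axis, with mutants as circles and controls as squares, 1 panel per table and 1 point per group. Lama4, Lamb1 and Lamc1 stand between 598 and 944 in endothelial cells, while Lama1, Lama2 and Lamc3 stand between 3.49 and 12.3 there and between 59.1 and 377 in pericytes. Each table was normalized separately, so heights are read within a panel.

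The beta chains were alike in their order across groups, with Lamb1 above Lamb2 in all 6. Lamb1 (chromosome 12, plus strand, 31265234 to 31329644) encodes the common beta chain of embryonic laminins, and Lamb2 (chromosome 9, plus strand, 108479736 to 108490530) a beta chain known from synaptic, kidney and mature vessel basement membranes. Lamb1 made up 87.4% of beta chain levels in mutant and 86.9% in control endothelial cells, 66.3% in mutant and 65.1% in control E13.5 pericytes, and 64.0% in mutant and 65.4% in control E11.5 pericytes. Lamb2 was at 99.8 per kb in mutant and 134 per kb in control endothelial cells, and at 685 per kb in mutant and 653 per kb in control E13.5 pericytes. Lamb3, a chain of epithelial laminin outside the 9, stayed at or under 2.37 per kb in both pericyte tables.

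RefSeq promoter windows (GRCm38.p6, 250 bases before to 50 after the start) were found for 4 of the 9 chains, Lama2, Lama5, Lamb1 and Lamb2, and the 2 beta chains are shown because they are the pair whose levels and ratios are set side by side here. The letters lie before the first annotated exon on the plus strand, at chr12:31265043-31265233 for Lamb1 and chr9:108479612-108479735 for Lamb2. Capitals mark matches on either strand to CAGAC, the SMAD box, and to GGGCGG, the GC box.
Lamb1: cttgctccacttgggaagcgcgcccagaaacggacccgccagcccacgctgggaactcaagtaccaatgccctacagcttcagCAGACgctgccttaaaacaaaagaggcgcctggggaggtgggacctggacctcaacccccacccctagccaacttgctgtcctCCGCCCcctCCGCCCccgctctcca
Lamb2: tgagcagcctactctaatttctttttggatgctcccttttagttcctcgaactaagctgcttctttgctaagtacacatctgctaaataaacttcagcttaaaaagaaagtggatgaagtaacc
Over the whole window Lamb1 held 1 match to CAGAC and 2 to GGGCGG, and Lamb2 2 and 0, with those of Lamb2 lying outside the printed stretch. CAGAC was found in 49.6% and GGGCGG in 35.7% of the 32851 windows, and TGANTCA, the AP-1 letters, in 7.81% of them and in none of these 4 chains. These motifs overlap in no letters of the printed stretches, and a match is a description of the letters alone.

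The share of Lamc3 among the gamma chains set the sorted populations apart. Lamc1 (chromosome 1, minus strand, 153218922 to 153332786) encodes the gamma chain of most laminins. Lamc3 (chromosome 2, plus strand, 31887291 to 31946539) encodes a gamma chain known from brain surface, and human LAMC3 variants are known from cortical malformations. Lamc3 made up 0.657% of gamma chain levels in mutant and 0.505% in control endothelial cells, 19.7% in mutant and 16.4% in control E13.5 pericytes, and 63.7% in mutant and 59.1% in control E11.5 pericytes. The 2 chains thus stood in opposite orders in the 2 pericyte tables, with Lamc1 at 1274 and 1122 per kb against Lamc3 at 312 and 221 per kb in mutants and controls at E13.5, and Lamc1 at 214 and 241 per kb against Lamc3 at 377 and 348 per kb in mutants and controls at E11.5.

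Exons of Lamc3 share 329 bases with the antisense gene Gm13441, which averaged 25.01 in mutant and 20.2 in control pericytes of E13.5 by the authors' deposited table, and exons of Lama2 share 154 with the antisense gene Gm48084. Whether counting used strand is not given in the sources used here, and reads over those bases cannot be told apart.

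**Figure D2:**
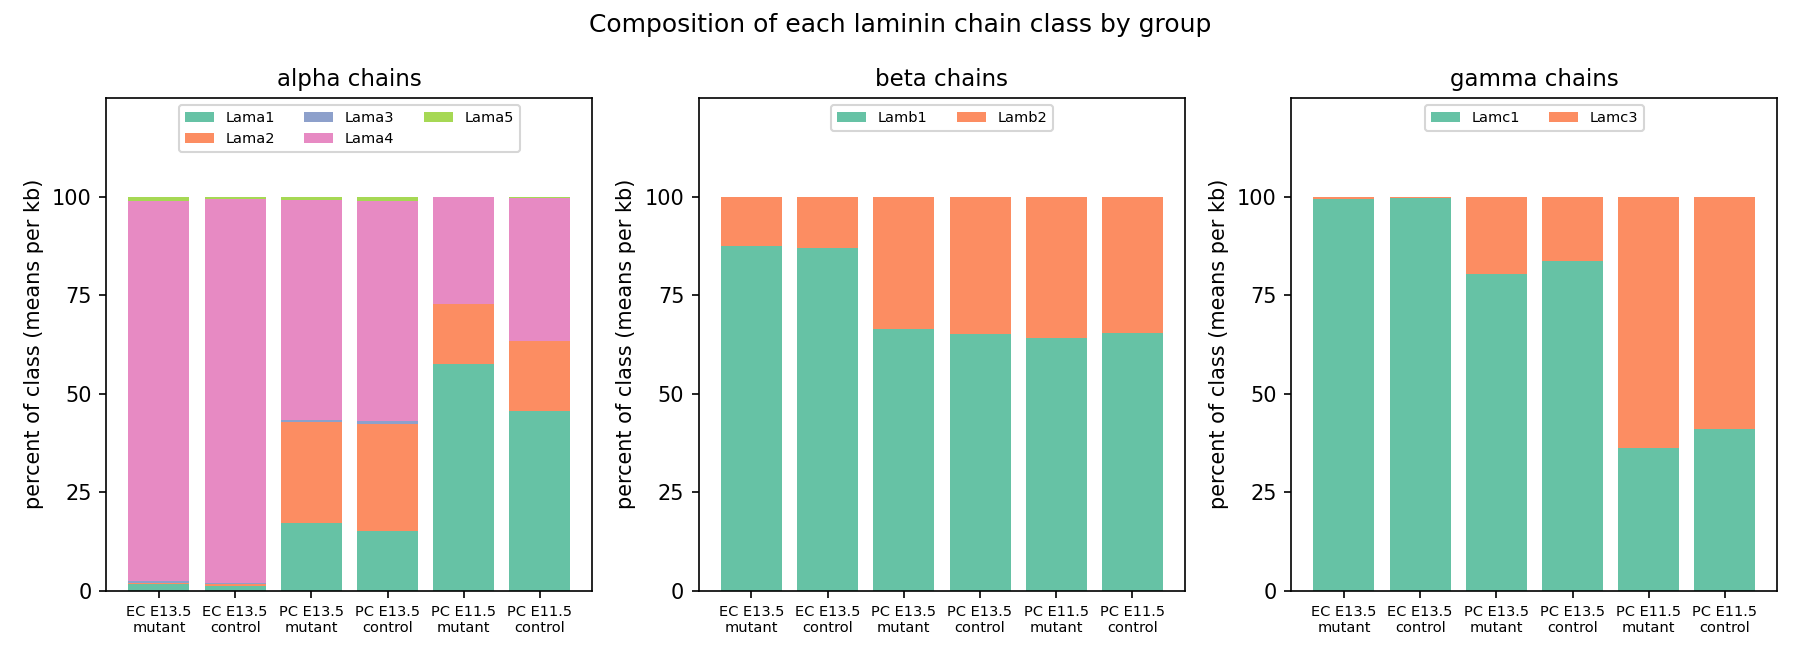
Percent of each chain class by gene, from group means per kb of transcript, in 6 groups with each mutant bar left of its control. Lama4 takes 96.4% and 97.4% of alpha levels in mutant and control endothelial cells, and Lamc3 takes 63.7% and 59.1% of gamma levels in mutant and control E11.5 pericytes.

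Set across tables as percentile ranks among all listed genes, control levels of Lamb1 were at percentile 96.7 in endothelial cells, 98.0 in E13.5 pericytes and 96.5 in E11.5 pericytes. Control levels of Lama4 were at percentile 97.2 in endothelial cells, 93.8 in E13.5 pericytes and 81.0 in E11.5 pericytes. Those of Lama2 were at percentile 24.3 in endothelial cells, 91.1 in E13.5 pericytes and 75.5 in E11.5 pericytes. Lamc3 was the chain with the widest range, at percentile 16.1 in control endothelial cells, 81.2 in control E13.5 pericytes and 92.9 in control E11.5 pericytes. These ranks are descriptions, since the tables share no scale and no test between them was made on levels. In sorted bulk samples, fewer cells of a type and less RNA per cell cannot be told apart.

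In E13.5 endothelial cells the alpha, beta and gamma chains that this cell type used most were at lower mean levels in mutants, but 0 of the 9 chains passed an adjusted p of 0.05 (the authors' test and deposited table), against 7.30% of the 18132 genes tested. At an unadjusted p under 0.05 there were 2 lower, Lama4 and Lamb2, and 0 higher, against 8.84% lower and 11.2% higher over all genes. Lama4 averaged 4138 in mutants and 5708 in controls by the authors' deposited table, a ratio of 0.725 (95% interval 0.581 to 0.905, adjusted p = 0.0564). Lamb2 averaged 562 in mutants and 754 in controls by the authors' deposited table, a ratio of 0.745 (95% interval 0.568 to 0.978, adjusted p = 0.201). Both intervals lie below 1, and both adjusted values miss the threshold.

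Lamb1 averaged 3991 in mutants and 5126 in controls, a ratio of 0.779 (95% interval 0.599 to 1.01), and Lamc1 averaged 4561 in mutants and 5629 in controls, a ratio of 0.810 (95% interval 0.650 to 1.01), by the authors' deposited table. Lama4, Lamb1 and Lamc1, the most abundant endothelial chain of each class, thus had ratios between 0.725 and 0.810, and the intervals of Lamb1 and Lamc1 include 1. Lama5 averaged 97.0 in mutants and 72.8 in controls by the authors' deposited table, the largest ratio of the 9 at 1.33 (95% interval 0.956 to 1.86). Lama1, Lama2, Lama3 and Lamc3 averaged at most 117 in both groups, with ratios between 0.780 and 1.08 and adjusted p from 0.674 to 0.966, by the authors' deposited table. The log2 ratio was above 0 for 3 chains and below 0 for 6, against 48.3% and 51.7% of all genes, and the median of the 9 was -0.30, against -0.01 over all genes tested.

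Cell type markers were also called in the same libraries, where 7.30% of all genes were called and 51.7% had log2 ratios below 0. The called counts of endothelial markers and of fibroblast and meningeal markers are near that 7.30%. Of 15 endothelial markers 1 fell, Kdr, which encodes the main VEGF receptor, 11 had log2 ratios below 0, the median was -0.22 and the summed level was 140506 in mutants and 162677 in controls, by the authors' deposited table. Of 11 erythroid markers 10 rose, and their summed level was 7.47% of all means in mutants and 0.304% in controls by the authors' deposited table. Of 12 myeloid markers 2 rose, Tyrobp and Aif1, with a summed level of 24101 in mutants and 14417 in controls by the authors' deposited table. Of 13 listed pericyte markers 0 passed, with a summed level of 3908 in mutants and 4816 in controls, and of 11 fibroblast and meningeal markers tested 1 rose, Slc6a13, by the authors' deposited table. The part of these markers in the laminin ratios was not tested. With both groups scaled to the same sum of means, 2 chains passed, Lama4 (adjusted p = 0.00698) and Lamb2 (adjusted p = 0.0496), and with erythroid genes left out of that sum, a setting chosen after seeing the data, 1 passed, Lama4 (adjusted p = 0.0445). With log2 ratios centred on the endothelial markers' median of -0.22, also chosen after seeing the data, Lama4 was at -0.24 (adjusted p = 0.341) and Lamb2 at -0.20 (adjusted p = 0.554). With the spread rescaled so that the median test statistic over all genes matched a standard normal, their adjusted p were 0.690 and 0.897.

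In E13.5 pericytes, the cells in which Alk5 was targeted, the abundant chains were at slightly higher mean levels in mutants, and again 0 of the 9 passed (the authors' test and deposited table), against 0.388% of 20084 genes tested. At an unadjusted p under 0.05 there were 4 higher, Lama4, Lamb1, Lamc1 and Lamc3, and 0 lower, against 2.31% higher and 1.75% lower over all genes. Lamc1 averaged 9710 in mutants and 8554 in controls by the authors' deposited table, a ratio of 1.14 (95% interval 1.05 to 1.23, adjusted p = 0.271). Lamc3 averaged 1834 in mutants and 1295 in controls by the authors' deposited table, a ratio of 1.42 (95% interval 1.02 to 1.97, adjusted p = 1.00). Lamc3 thus had the largest ratio and Lamc1 the smallest p of the 9.

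Lamb1 averaged 7782 in mutants and 7042 in controls, a ratio of 1.11 (95% interval 1.01 to 1.20), and Lama4 averaged 3779 in mutants and 3334 in controls, a ratio of 1.13 (95% interval 1.00 to 1.28), by the authors' deposited table. Lama1 averaged 1826 in mutants and 1427 in controls by the authors' deposited table, a ratio of 1.28 (95% interval 0.909 to 1.80). Lama2 averaged 2752 in mutants and 2563 in controls and Lamb2 3858 in mutants and 3676 in controls by the authors' deposited table, with upper limits of the 95% interval at ratios of 1.21 and 1.13. For Lama2, Lamb1, Lamb2 and Lamc1 the intervals therefore left room for changes of at most 1.23-fold upward and, at their lowest, a ratio of 0.950. Lama3 averaged 63.0 in mutants and 67.9 in controls and Lama5 106 in mutants and 114 in controls by the authors' deposited table, and their intervals were wider, from 0.648 to 1.33 and from 0.445 to 1.92.

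In E13.5 pericytes the log2 ratio was above 0 for 7 chains and below 0 for 2, against 50.4% and 49.6% of all genes, and the median of the 9 was 0.14, against 0.00 over all genes tested. The marker counts that follow stand beside 0.388% of all genes called in this comparison. Among the 12 fibroblast and meningeal markers 0 passed and 8 had log2 ratios above 0, with a summed level of 320138 in mutants and 304486 in controls, by the authors' deposited table. The 14 pericyte markers with values included 1 that fell, Rgs5, with a summed level of 37277 in mutants and 36487 in controls, and of 12 endothelial markers with values 1 fell, Erg, and 11 had log2 ratios above 0, with a summed level of 3713 in mutants and 3909 in controls, by the authors' deposited table. Of 7 erythroid markers tested 0 passed and all 7 had log2 ratios above 0, with a median of 2.08, and the 8 with values summed to 2099 in mutants and 490 in controls, by the authors' deposited table. Their part in the laminin ratios was not tested. With the spread rescaled in the same way, 1 chain passed, Lamc1 (adjusted p = 0.0466). That setting multiplied each SE by 0.864 here, which narrowed it, against 1.48 in endothelial cells, which widened it. Centred on the pericyte markers' median of 0.07, a setting chosen after seeing the data, Lamc1 was at 0.11 on the log2 scale, against 0.18 as deposited, and did not pass (adjusted p = 0.604).

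In E11.5 pericytes 0 of 8 chains passed (the authors' test and deposited table), against 3.35% of 19301 genes tested, and 0 had an unadjusted p under 0.05, against 11.4% lower and 6.30% higher over all genes. Lama4 averaged 638 in mutants and 934 in controls by the authors' deposited table, a ratio of 0.683 (95% interval 0.462 to 1.01, adjusted p = 0.294). Lama2 averaged 569 in mutants and 726 in controls by the authors' deposited table, a ratio of 0.783 (95% interval 0.587 to 1.05, adjusted p = 0.376). These 2 alpha chains had the smallest p of the 8.

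Lama1 averaged 2140 in mutants and 1839 in controls and Lamc3 2211 in mutants and 2045 in controls by the authors' deposited table, with ratios of 1.16 and 1.08. Lamb1 averaged 2932 in mutants and 3300 in controls, Lamb2 1607 in mutants and 1699 in controls, and Lamc1 1633 in mutants and 1839 in controls, by the authors' deposited table, with ratios between 0.888 and 0.946. Lama5 averaged only 10.9 in mutants and 13.9 in controls by the authors' deposited table, and its 95% interval ran from 0.375 to 1.63. The chains thus lay on both sides of a ratio of 1, with 2 above and 6 below, against 49.6% and 50.4% of all genes, and the median log2 ratio was -0.17, against -0.00 over all genes tested.

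Several marker lists held genes that fell at E11.5, where 3.35% of all genes were called. Of 14 pericyte markers 5 fell, among them the channel genes Kcnj8 and Abcc9, with a summed level of 13384 in mutants and 17541 in controls, by the authors' deposited table. Among the 12 fibroblast and meningeal markers 4 fell and 1, Crabp2, rose, with a summed level of 78019 in mutants and 102390 in controls, by the authors' deposited table. Of 11 endothelial markers with values 1 fell, Erg, and they summed to 707 in mutants and 1328 in controls, while of 12 myeloid markers 3 fell, Csf1r, Spi1 and C1qc, and they summed to 1334 in mutants and 2549 in controls, by the authors' deposited table. The part of these lists in the laminin ratios was not tested. With log2 ratios centred on the pericyte markers' median of -0.61, a setting chosen after seeing the data, Lama1, Lamc3 and Lamc1 passed with positive values of 0.83, 0.72 and 0.44 (adjusted p = 0.000393, 0.00879 and 0.0209). That setting moves every gene up by the same amount, from a median over all genes of -0.004. The share of all genes that then passed is not given here, so the 3 calls are not read as particular to laminins. All 8 chains were then above 0 and 0 below, in place of 2 and 6, so the directions of Lama2, Lama4, Lama5, Lamb1, Lamb2 and Lamc1 depend on which genes are taken as fixed.

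**Figure D3:**
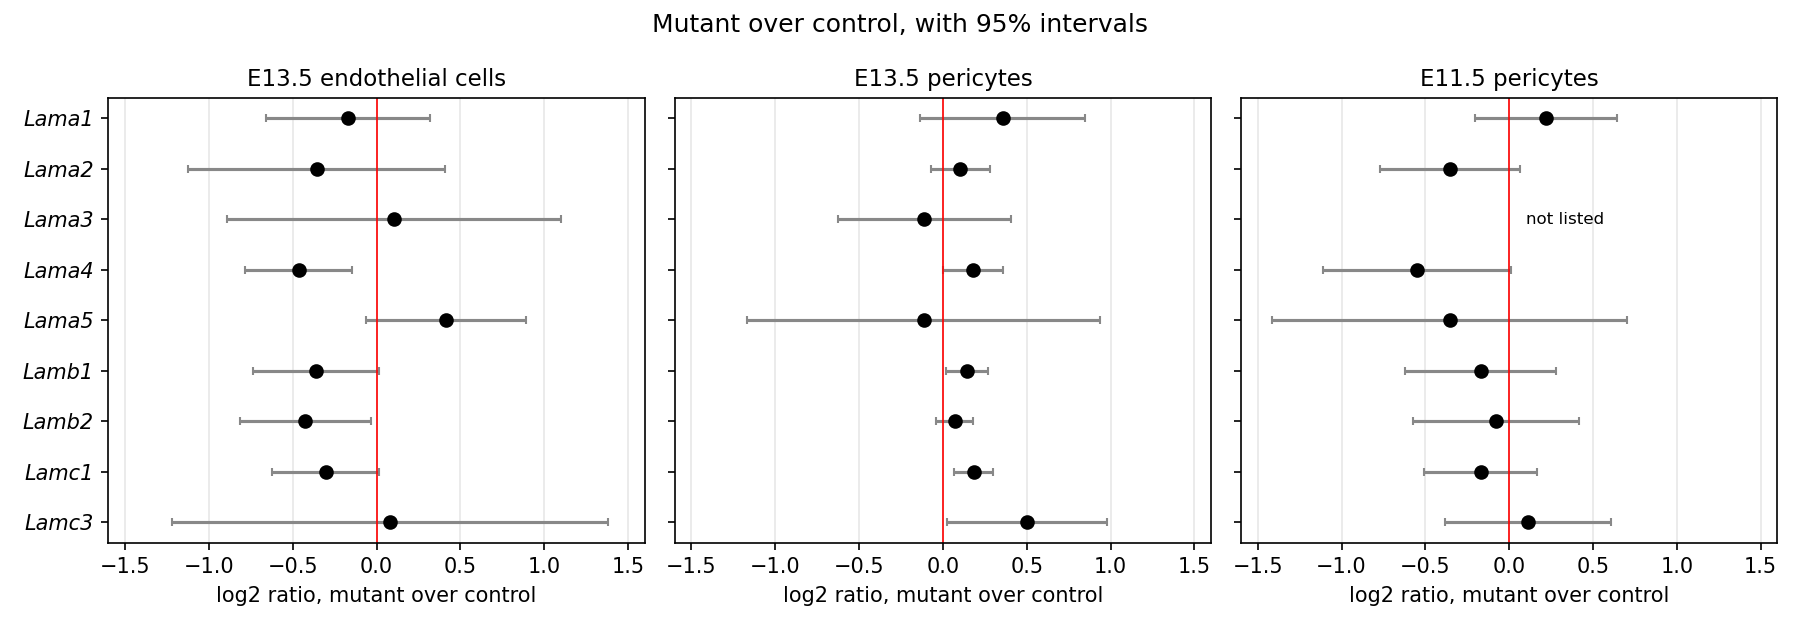
Log2 ratio of mutant over control for each chain in the 3 comparisons, as points with 95% intervals from the SE that the authors' ratio and p imply. In endothelial cells Lama4 at -0.46 and Lamb2 at -0.42 have intervals that do not reach 0, as do Lamc1 at 0.18, Lamb1 at 0.14, Lama4 at 0.18 and Lamc3 at 0.50 in E13.5 pericytes. None of these points passed an adjusted p of 0.05.

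The Lama4 ratio of mutants over controls differed between the 2 cell types at E13.5. By the Xist levels given above, sex and genotype cannot be told apart in the pericyte comparison, and so not in this difference either. The log2 ratio of Lama4 was -0.46 in endothelial cells and 0.18 in pericytes, a difference of -0.64 (SE 0.19, 95% interval -1.01 to -0.28, adjusted p = 0.0209, two-sided normal test of the difference with Benjamini-Hochberg adjustment over 16920 genes). Lama4 was the 1 chain of 9 that passed, while 3.94% of all genes did and 0.987% did with a difference below 0. At an unadjusted p under 0.05 the differences of Lama4, Lamb1, Lamb2 and Lamc1 were below 0, against 7.33% of all genes, and no chain's was above 0, against 8.25%. Lamc1 differed by -0.49 (95% interval -0.82 to -0.15, adjusted p = 0.0890), Lamb1 by -0.51 (95% interval -0.90 to -0.11, adjusted p = 0.162) and Lamb2 by -0.49 (95% interval -0.90 to -0.09, adjusted p = 0.189).

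The differences of these 4 chains were of similar size, and the other 5 could not be placed. Lama1, Lama2 and Lamc3 differed by -0.53, -0.46 and -0.42, and Lama3 and Lama5 by 0.21 and 0.53, each with a 95% interval that spans 0. Of the 9 differences 2 were above 0 and 7 below, against 47.0% and 53.0% of all genes, and their median was -0.49, against -0.02 over all genes. The Lama4 call was lost with the spread of each table rescaled to a standard normal (adjusted p = 0.386). It was also lost with each table centred on its own cell type's markers, where the difference was -0.35 (adjusted p = 0.196), a setting chosen after seeing the data.

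Between stages, 0 of 8 chains passed the test of a difference in pericytes (normal test of the difference, E13.5 minus E11.5), against 1.43% of 18267 genes. The limit on sex in the E13.5 pericyte comparison holds for these differences too. At an unadjusted p under 0.05 there were 2 above 0, Lama4 and Lama2, against 9.47% of all genes, and 0 below, against 3.86%. Lama4 differed by 0.73 (SE 0.30, 95% interval 0.14 to 1.32, adjusted p = 0.240) and Lama2 by 0.46 (SE 0.23, 95% interval 0.00 to 0.91, adjusted p = 0.373). All 8 differences were above 0 and 0 below, against 50.6% and 49.4% of all genes, with a median of 0.33 against 0.00, and centring each table on its pericyte markers turned 7 of them below 0, all but that of Lama4.

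**Figure D4:**
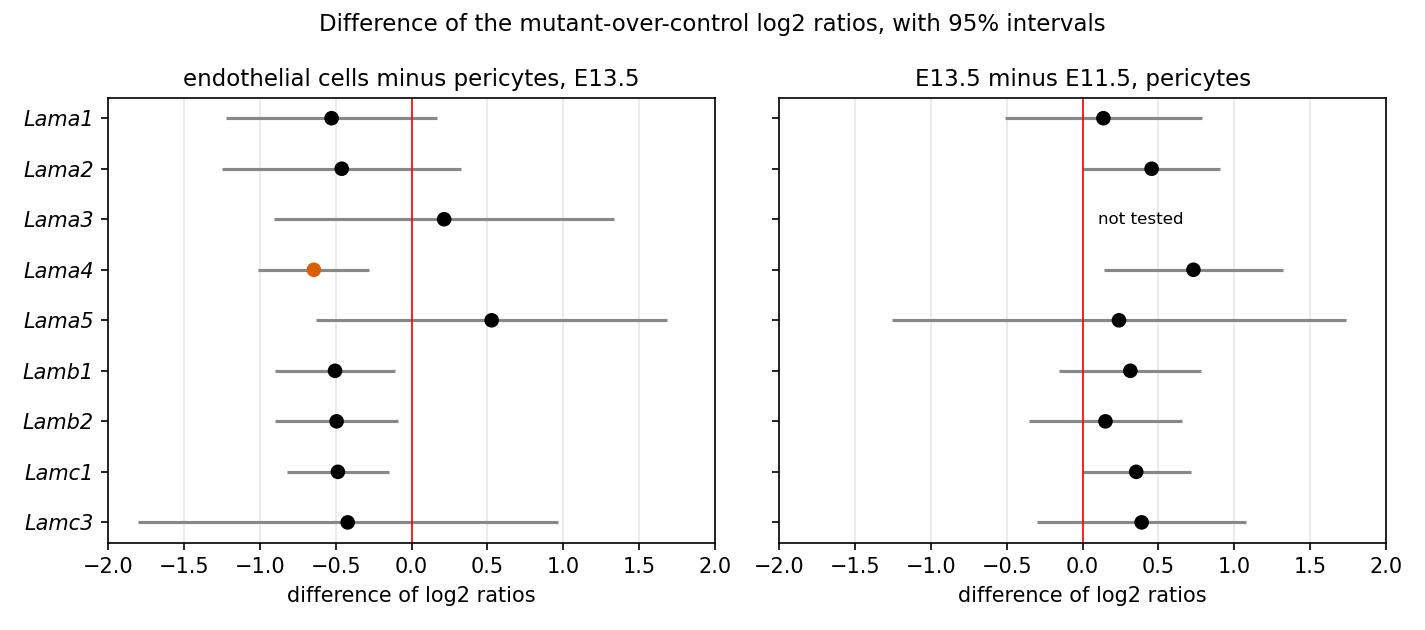
Difference of the log2 ratios of mutant over control, endothelial cells minus pericytes at E13.5 in the left panel and E13.5 minus E11.5 pericytes in the right panel, with 95% intervals as lines. Lama4 in the left panel, at -0.64, is the filled orange point that passed an adjusted p of 0.05.

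Of 11 genes tested whose products laminins meet in the basement membrane, 2 fell and 0 rose in endothelial cells, against 7.30% of all genes called in that table, by the authors' deposited table. Their log2 ratios were below 0 for 10 and above 0 for 1, against 51.7% and 48.3% of all genes, with a median of -0.28, against -0.01 over all genes. Nid2, a nidogen that bridges laminin and type IV collagen, fell to 3813 in mutants, against 5329 in controls (adjusted p = 0.0244), and Col15a1, a collagen next to the basement membrane, fell to 120 in mutants, against 1196 in controls, by the authors' deposited table. The other nidogen gene, Nid1, averaged 9742 in mutants and 12290 in controls (adjusted p = 0.0661) by the authors' deposited table. In E13.5 pericytes 1 of 12 fell, Col15a1, and 0 rose, against 0.388% of all genes called, and in E11.5 pericytes 1 of 10 fell, Agrn, which encodes the proteoglycan agrin, and 0 rose, against 3.35% of all genes called, by the authors' deposited tables.

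By the same test, with ratios as deposited, the endothelial ratios of both nidogens differed from the pericyte ratios. Values under the settings that lost the Lama4 call are not given for the genes of this paragraph. The limit on sex in the pericyte comparison holds for them too. Nid2 differed by -0.60 (SE 0.16, adjusted p = 0.00933) and Nid1 by -0.52 (SE 0.15, adjusted p = 0.0238) between endothelial cells and pericytes at E13.5. These were the 2 called of 11 partners tested, against 3.94% of all genes. All 11 differences were below 0, against 53.0% of all genes, with a median of -0.45, against -0.02. The type IV collagen genes Col4a1 and Col4a2 differed by -0.22 and -0.45 (adjusted p = 0.663 and 0.170). In the dystroglycan complex Dtna differed by -1.64 and Utrn, which encodes utrophin, by -0.40 (adjusted p = 0.0238 and 0.0460), the 2 called of 10 tested, against the same 3.94%. Of 17 dystroglycan glycosylation enzymes 1 was called, Dpm3, with a difference above 0, at 1.07 (adjusted p = 0.00158), against 3.94% of all genes. Differences of the 17 were above 0 for 8 and below 0 for 9.

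Among laminin receptors, 0 of 5 laminin-binding integrins and Bcam passed in endothelial cells, 0 of 6 in E13.5 pericytes and 0 of 6 in E11.5 pericytes (the authors' test and deposited tables). The shares over all genes were 7.30%, 0.388% and 3.35% in the same order, so lists this short could hold 0 called without differing from other genes. Itgb1, the beta subunit that pairs with the laminin-binding alpha subunits, averaged 8603 in mutant and 10280 in control endothelial cells and 15514 in mutant and 14928 in control E13.5 pericytes by the authors' deposited tables. Itga6, whose integrins bind laminins, averaged 4916 in mutant and 5618 in control endothelial cells by the authors' deposited table. Of 10 tested members of the dystroglycan and dystrophin complex 2 fell in endothelial cells, Sntb1 and Dtna, which encode a syntrophin and a dystrobrevin, and all 10 had log2 ratios below 0, against 7.30% of all genes called and 51.7% below 0, by the authors' deposited table. Dag1, which encodes dystroglycan itself, averaged 2347 in mutants and 3002 in controls there (adjusted p = 0.0653) by the authors' deposited table. In E13.5 pericytes 0 of 11 members passed, against 0.388% of all genes called, by the authors' deposited table.

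Of 17 enzymes that build the laminin-binding sugar of dystroglycan 1 rose in endothelial cells, Dpm3, a subunit of dolichol-phosphate mannose synthase, at a ratio of 2.18, by the authors' deposited table. The 1 of 17 is near the 7.30% of all genes called in the endothelial table. In pericytes 0 of the 17 passed at E13.5, against 0.388% of all genes, and 0 at E11.5, against 3.35%, by the authors' deposited tables. Among proteases known to cut laminin or other matrix, Ctsb, which encodes cathepsin B, rose at a ratio of 1.61 as 1 of 9 in E13.5 endothelial cells, a share near the same 7.30%, by the authors' deposited table. Mmp9, a gelatinase gene, fell at a ratio of 0.605 as 1 of 9 in pericytes at that stage, against 0.388% of all genes called, by the authors' deposited table. At E11.5, 3 of 8 fell, Bmp1, Mmp14 and Mmp9, at ratios of 0.517, 0.540 and 0.313, against 3.35% of all genes called, by the authors' deposited table. Of the 8 proteases tested, the stage difference passed for Bmp1, at 0.88 (adjusted p = 0.0114), and Mmp14, at 0.87 (adjusted p = 0.0432), against 1.43% of all genes. Netrins are secreted proteins with a laminin-like LN domain. Of 5 tested at E11.5, 1 fell, where 3.35% of all genes were called. It was Ntn3, at 222 in mutants and 444 in controls by the authors' deposited table. In E13.5 pericytes 0 of 6 netrins passed, against 0.388% of all genes, and in endothelial cells 0 of 2, against 7.30%, by the authors' deposited tables. Ntn4, whose product binds the Lamc1 chain and opens laminin sheets, averaged 254 in mutant and 177 in control E13.5 pericytes (adjusted p = 0.110) by the authors' deposited table.

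The genes whose means over the 6 groups ran most like those of Lama4, by Euclidean distance of centred log2 means among 12200 genes with a mean of at least 10 in each group, were Tjp1, Nova2 and Smpdl3b, at distances of 0.189, 0.199 and 0.341. Tjp1, which encodes the tight junction scaffold ZO-1, averaged 3832 in mutant and 5523 in control endothelial cells (adjusted p = 0.0140) and 3278 in mutant and 3238 in control pericytes of E13.5, by the authors' deposited table. Nova2, a splicing regulator gene, averaged 433 in mutant and 643 in control endothelial cells (adjusted p = 0.0152) and 391 in mutant and 341 in control pericytes of E13.5, by the authors' deposited table. Smpdl3b averaged 132 in mutant and 152 in control endothelial cells (adjusted p = 0.707) by the authors' deposited table. In E13.5 pericytes it averaged 90.4 in mutants and 103 in controls. These genes were picked by distance over the same mutant and control means, so their likeness to Lama4 is partly set by that choice. Of the other laminin chains, Lama5 and Lamc1 were nearest to Lama4 in pattern, at distances of 1.24 and 1.43, but ranked only 234 and 397. Lamc3 was farthest, ranking 12194 of the 12200 genes. Nearness in this measure does not mean a like mutant ratio, since Lama5 had an endothelial ratio of 1.33 and Lama4 of 0.725. The 6 means share 3 tables, so the distances are descriptions.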

How the data were processed

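RNA of sorted cells from 24 libraries was made into KAPA mRNA libraries and run on a NovaSeq instrument (labels' protocols). The submitters' processing notes name Partek, Bowtie2, DESeq2 and the build mm10, each with no version, and their annotation, counting, filters and model are not stated in what was used here. The tables hold, per the file headers, the authors' p-value and step-up FDR, their mutant over control ratio, a signed fold score, and a least-squares mean for either group. These deposited means were read as a signal of normalized counts with unknown scale, so the depth behind a value is unknown and intervals for counting error are left out. The adjusted p printed for a comparison is the authors' deposited FDR, read as DESeq2's since no other test tool is named, and equals the Benjamini-Hochberg value over genes that have one.

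The log2 ratio is that of the deposited ratio. Its SE is the log2 ratio over the standard normal quantile that matches the two-sided p, as holds for a Wald test, and 95% intervals use that SE. Differences of 2 log2 ratios were tested with the root of the summed squared SE over all genes of both tables. This takes the 2 sets of libraries as independent. Endothelial cells and pericytes of E13.5 may come from the same embryos, which the labels do not say, and any link between them was not modelled. Transcript lengths and positions came from GENCODE vM21 (mm10), promoters from RefSeq (GRCm38.p6). The steps were tested on simulated data and used scipy 1.17.1, pandas 2.3.3, numpy 2.4.6, matplotlib 3.10.9 and Python 3.11.15. Since the labels do not name litters or animals, a p-value covers the spread among these libraries alone, which may be technical.

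The members and the 7 other gene lists and 7 marker lists were chosen with earlier results of these data known. All 9 chains were named in every comparison. Of other lists, up to 4 called members were named, or, with none called, up to 2 of the highest level. Nearest patterns were given for a chain called in any comparison, which was Lama4 through the difference between cell types. Nid1 and Dag1 in endothelial cells, Ntn4, Col4a1, Col4a2 and the antisense genes fall outside that rule and were chosen after their values were seen. Values per library were not analysed here, so the planned tests that leave out a replicate were not run. Some results on genes and sequences of these lists are not reported here.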

Additional observations from a re-analysis of the deposited data

Results flagged for a closer look

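The log2 ratio of Lama4 differed between endothelial cells and pericytes at E13.5 by -0.64 (adjusted p = 0.0209, normal test of the difference over all genes), and this difference between groups under the same contrast is what brought it here. Lama4 had a ratio of 0.725 in endothelial cells (3 mutant and 5 control samples) and 1.13 in E13.5 pericytes in the authors' deposited tables, and neither ratio passed on its own. How many samples show each direction cannot be given from group means. The adjusted p was 0.386 with the spread rescaled and 0.196 with each table centred on its own cell type's markers.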

How the results depend on the processing

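No paired analysis was possible because the deposited values are 1 mean per group. With an adjusted p threshold of 0.1, 1 chain passed in endothelial cells (Lama4) and 2 differed between cell types (Lama4 and Lamc1). Scaled to the summed means, 2 passed in endothelial cells, while Lama3 and Lamc3 there turned to -0.021 and -0.044 on the log2 scale. Without erythroid genes in that sum, 1 passed. With the spread rescaled, 1 passed in E13.5 pericytes and 0 differed between cell types. That setting narrowed the SE in E13.5 pericytes and widened it in endothelial cells and E11.5 pericytes. Centred on the sorted cell type's markers, a setting chosen after seeing the data, 3 passed in E11.5 pericytes and 0 differed between cell types. The share of all genes that passed under that centring is not given here. That centring turned Lama1 to 0.051 in endothelial cells and Lamb2 to -0.00064 in E13.5 pericytes. In E11.5 pericytes it turned Lama2, Lama4, Lama5, Lamb1, Lamb2 and Lamc1 to 0.26, 0.061, 0.26, 0.44, 0.53 and 0.44. It turned the stage differences of Lama1, Lama2, Lama5, Lamb1, Lamb2, Lamc1 and Lamc3 to -0.55, -0.23, -0.44, -0.37, -0.53, -0.33 and -0.29. Per kb of coding sequence, Lamc1 ranked 1 among the chains in both endothelial groups and both E13.5 pericyte groups and 3 in both E11.5 groups, in place of 3, 3, 2, 2, 5 and 4 in the order endothelial, E13.5 and E11.5 with mutants ahead of controls, since its untranslated part is long. In the 3 comparisons of mutants with controls the count of chains stayed at 0 without the filter on low levels and with an added minimum of 1 for the absolute log2 ratio. Neither was run on the differences, and the Lama4 difference of -0.64 is smaller than that minimum. Centring on the median ratio kept the count in all 3 and in both differences. The means limit what can be said of Lama3, Lama5 and, in endothelial cells, Lamc3. The cause of each change was not tested.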

Other observations

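Summed over each class of the 9 chains, alpha chain levels per kb of transcript were 709.9 in mutant and 969.6 in control endothelial cells, beta chain levels 789.9 in mutant and 1020.2 in control cells, and gamma chain levels 602 in mutant and 742 in control cells. In E13.5 pericytes alpha chains summed to 1118 per kb in mutants and 984 in controls, beta chains to 2031 in mutants and 1871 in controls, and gamma chains to 1586 in mutants and 1343 in controls. The alpha sum was 1.18 times the gamma sum in mutant and 1.31 times in control endothelial cells, against 0.705 times in mutant and 0.733 times in control E13.5 pericytes and 0.660 times in mutant and 0.720 times in control E11.5 pericytes. Per kb of coding sequence the alpha sum was below the gamma sum in endothelial cells too, at 0.826 times in mutants and 0.916 times in controls, so the order of the 2 classes there depends on the length used. In E13.5 pericytes it was then 0.500 times in mutants and 0.516 times in controls, and in E11.5 pericytes 0.509 times in mutants and 0.553 times in controls. These are sums of authors' means with no error, and no test was made on them.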
